A study of Mus musculus with 4 samples.

Results

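The 9 genes described here encode retinoid receptors, retinoic acid binding proteins and a membrane protein that takes up retinol. They are Rara, Rarb, Rarg, Rxra, Rxrb, Rxrg, Crabp1, Crabp2 and Stra6. They were taken by gene symbol from the 23185 genes named on the array, 1 probe set each, and all 9 were bright enough to be tested. RNA came from forelimbs of C57BL/6 mouse embryos at E11.5, either wild type (WT) or carrying the Shox2 knockout (SHOX2-KO), a loss of the homeodomain factor that the proximal limb skeleton needs for growth. Every array held RNA pooled from 3 to 4 forelimbs of 1 genotype, and each genotype had 2 arrays, numbered 48 and 50 in their titles. The sample labels count forelimbs and the design text counts embryos, taken from 2 pregnancies. How the knockout allele was built, and whether the gene was deleted in all cells or in some, was not described in the labels used here. Pairs of array values are given in the order 48, 50 throughout.

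Retinoic acid is made inside cells from retinol, and it acts by binding nuclear receptors that sit on DNA. The receptor is a pair of proteins, a retinoic acid receptor (RAR) joined to a retinoid X receptor (RXR), which recruits corepressors without the ligand and coactivators with it. STRA6 is a membrane protein that takes up retinol from its carrier in blood. The cellular retinoic acid binding proteins CRABP1 and CRABP2 hold the acid in the cytoplasm, and CRABP2 can hand it to the receptor in the nucleus. In the limb bud, retinoic acid is a signal of the trunk and proximal limb, and it is broken down by CYP26 enzymes distally.

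The pair of proteins recognises repeats of a short half-site, and the promoter of Rarb holds the textbook example of such a repeat. RefSeq windows on GRCm38.p6, from 250 bases before to 50 bases after a start site, were found for 8 of the 9 genes, 18 windows in all. Crabp2 was not matched. The half-site was searched as AGGTCA, or with a base changed as AGTTCA or as GGGTCA, or as GGTTCA, on both strands, and repeats of any pair of these forms in the same direction were searched at spacings of 1, 2 and 5 bases (DR1, DR2 and DR5). The 250 bases before the start follow for Rarb, the gene with the repeat, and for both starts of Rarg, the gene with the largest genotype difference. They lie at chr14:16575477-16575726, minus strand (Rarb), chr15:102257523-102257772, minus strand (first start of Rarg) and chr15:102246501-102246750, minus strand (second start). Capitals mark half-sites on either strand.
Rarb: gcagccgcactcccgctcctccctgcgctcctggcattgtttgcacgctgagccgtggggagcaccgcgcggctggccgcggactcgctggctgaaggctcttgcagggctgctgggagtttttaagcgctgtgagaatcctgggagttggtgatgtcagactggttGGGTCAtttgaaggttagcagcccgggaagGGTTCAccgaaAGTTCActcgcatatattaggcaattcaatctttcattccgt
Rarg first start: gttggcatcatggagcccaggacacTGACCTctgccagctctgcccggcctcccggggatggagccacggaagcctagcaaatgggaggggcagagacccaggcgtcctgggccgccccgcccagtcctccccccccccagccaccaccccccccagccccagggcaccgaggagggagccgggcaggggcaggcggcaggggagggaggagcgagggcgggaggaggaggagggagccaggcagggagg
Rarg second start: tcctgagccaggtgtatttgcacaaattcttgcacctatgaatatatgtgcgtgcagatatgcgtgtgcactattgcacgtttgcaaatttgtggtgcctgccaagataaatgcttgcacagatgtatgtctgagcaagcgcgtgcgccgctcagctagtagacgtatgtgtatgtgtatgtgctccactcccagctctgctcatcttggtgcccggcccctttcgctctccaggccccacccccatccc
A DR5 was present in the Rarb window, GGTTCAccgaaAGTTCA, at positions -53 to -37 from the start. It was the only DR5 in the 18 windows, and 0.0974% of the 32851 windows of all genes held one. No DR1 or DR2 was found in the windows of these genes, against 0.222% and 0.268% of all windows. Single half-sites were in 8 of the 18 windows and in 43.7% of all windows, so the 1 half-site of the first Rarg window is a common feature. A match describes letters in a window and is not a binding site measured in limb.

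The targeted gene was checked first. Shox2 had log2 values of 9.58 (number 48) and 8.88 (number 50) in knockout pools, against 10.57 and 10.37 in wild-type pools, so the genotypes did not overlap, with a difference of -1.24 ± 0.21 (SE; limma, adjusted p = 0.322). Where its probes lie relative to the deleted sequence is not known here, so this is only a partial check of the labels. Limb markers were bright: the forelimb gene Tbx5 and the limb mesenchyme gene Prrx1 ranked at percentiles 99.6 and 99.8 of the array. The knockout and wild-type pools also differed in sex-linked RNA. Eif2s3y, Kdm5d and Uty, which lie on the Y chromosome, read between 8.83 and 9.65 in the knockout and between 5.08 and 5.56 in the wild type, where all pools lay under the brightness limit of 5.599 set for the mean of a tested gene. They were the 3 genes called in limma over 14095 genes, and they entered the test through the knockout pools alone. Xist, also tested, was lower in the knockout (log2 difference -1.01), and its pools did not overlap between the genotypes. Sex-linked RNA thus followed genotype in all 4 arrays. The sex make-up of the pools and the genotype cannot be told apart in the differences below.

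Among these 9 genes the clearest separation of the genotypes was in Rarg, and the other 8 had differences whose 95% intervals included 0. No gene passed the test between the genotypes (limma, Benjamini-Hochberg over 14095 genes; 0 of 9, with 0.0213% of all genes called), and 1 of 9 reached an unadjusted p under 0.05, where 10.2% of all genes did. The median log2 difference of the 9 genes was 0.022, against -0.00098 over all genes tested, and 6 had higher and 3 lower values in the knockout. That balance had no stable direction: the median was -0.052 without knockout array 48 and -0.031 without wild-type array 50, with 2 and 4 of the 9 genes higher, and 0.10 without knockout array 50 and 0.11 without wild-type array 48. The count at an unadjusted p under 0.05 was 0 without knockout array 48 or without wild-type array 50. All 9 intervals lay within a 1.5-fold change in either direction, as did those of 94.7% of all genes. With 2 arrays per genotype the smallest two-sided p of an exact permutation test would be 0.333, so only the model fitted across all genes was used. The labels call the samples pools but do not say how the pregnancies were divided among them, so p-values measure the spread between these pools.

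**Figure D1:**
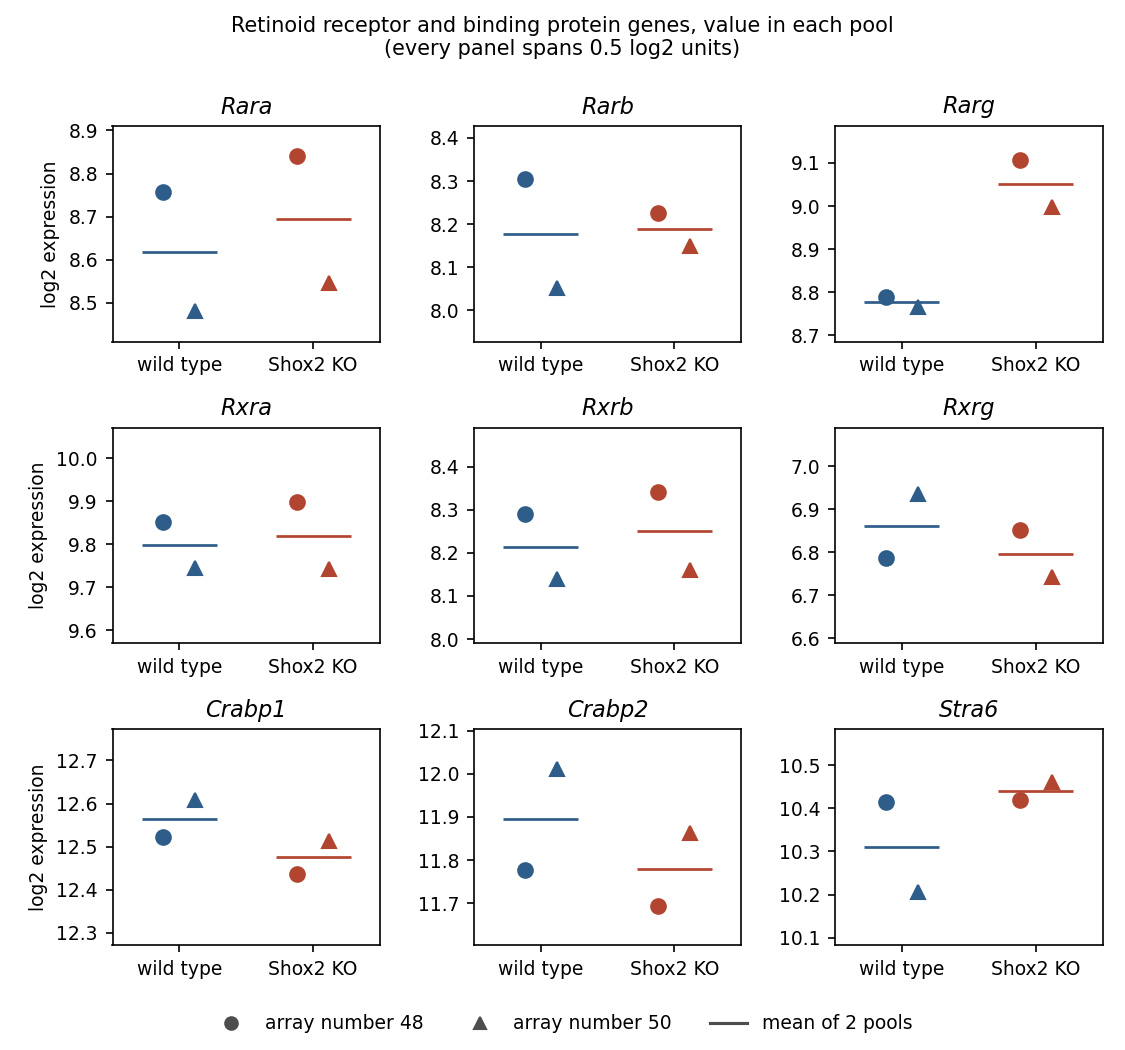
Log2 expression of each of the 9 genes in the 4 pools, with wild type in blue, Shox2 knockout in red, circles for arrays numbered 48, triangles for arrays numbered 50 and lines for the mean of 2 pools; every panel spans 0.5 log2 units. In Rarg both knockout pools (9.11 and 8.998) lie above both wild-type pools (8.79 and 8.77). In Rara, Rarb, Rxra and Rxrb both circles lie above both triangles. Within each genotype the circle of Rarg also lies above the triangle.

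Rarg encodes the retinoic acid receptor that is prominent in limb mesenchyme before and during cartilage formation. Its log2 values were 9.11 (number 48) and 8.998 (number 50) in knockout pools, against 8.79 and 8.77 in wild-type pools. Both knockout pools lay above both wild-type pools, and the gap between the nearest pools was 0.21. The means were 9.05 ± 0.076 and 8.78 ± 0.017 (SD, n = 2 pools each), a log2 difference of 0.27 ± 0.083 (SE), or a ratio of 1.21 with a 95% interval from 1.05 to 1.39. In limma the adjusted p of Rarg over all genes was 0.391 (unadjusted p = 0.0137), so it did not pass, ranking at place 494 of 14095 by p. The arrays numbered 48 gave a difference of 0.32 and those numbered 50 one of 0.23. With each array left out it ran from 0.22 to 0.33, and the unadjusted p was 0.0775 without knockout array 48 and 0.0596 without wild-type array 50. Whether Rarg differed more than the other 8 genes was not tested, and its interval overlaps theirs.

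Markers of the cells in a limb bud also had other values in the pools with the higher Rarg values. Of 12 limb mesenchyme markers 11 had higher values in the knockout, with a median difference of 0.19, and 9 did not overlap between the genotypes in that direction, as was so for 22.1% of all genes. The mean log2 level of this list was 9.82 to 9.90 in the knockout pools and 9.60 to 9.65 in the wild-type pools. Higher values were not limited to mesenchyme markers. Of 11 tested ectoderm markers 9 were higher and 2 lower in the knockout (median 0.097), where 49.5% of all genes were higher. Values were lower for 11 of 12 endothelial markers (median -0.25), with a mean level of 7.84 in both knockout pools against 7.98 to 8.04 in the wild type. All 12 endothelial markers, Pecam1 and Cdh5 among them, were above the brightness limit. In bulk tissue, more cells of a type and more RNA per cell cannot be told apart, and the part of these markers in the Rarg difference was not tested.

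The other RAR genes showed no such separation. Rara, the most widely expressed RAR, read 8.84 (number 48) and 8.55 (number 50) in knockout pools, against 8.76 and 8.48 in wild-type pools. Its genotypes overlapped, and the difference of 0.074 ± 0.13 (SE) corresponds to a ratio of 1.05 with a 95% interval from 0.842 to 1.32 (limma, adjusted p = 0.888). Rarb, the receptor gene whose promoter holds the DR5 shown above, read 8.23 and 8.15 in knockout pools, against 8.30 and 8.05 in wild-type pools. The knockout pools of Rarb lay between the wild-type pools. Its difference of 0.010 ± 0.11 was the smallest of the 9 genes, with a ratio of 1.01 and an interval from 0.845 to 1.20 (limma, adjusted p = 0.985). Its difference was -0.079 within number 48 and 0.10 within number 50. For Rara both within-number differences were positive, 0.083 and 0.066.

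The RXR genes encode the shared partners, which also pair with the vitamin D, thyroid hormone and lipid-sensing receptors. Rxra read 9.90 (number 48) and 9.74 (number 50) in knockout pools, against 9.85 and 9.74 in wild-type pools, so the pools of a number were nearly level. The Rxra difference was 0.022 ± 0.093 (SE; limma, adjusted p = 0.955), with an interval of the ratio from 0.871 to 1.18. Rxrb read 8.34 and 8.16 in knockout pools, against 8.29 and 8.14 in wild-type pools, again with overlapping genotypes. Its difference was 0.037 ± 0.10 (limma, adjusted p = 0.929), with an interval of the ratio from 0.869 to 1.21. Rxrg, best known from muscle and nervous tissue, was the dimmest of the 9 probe sets, at percentile 63.1 of all probe sets. Its values were 6.85 and 6.74 in knockout pools, against 6.79 and 6.94 in wild-type pools, and the within-number differences had opposite signs, 0.064 and -0.19. The Rxrg difference of -0.064 ± 0.092 did not pass (limma, adjusted p = 0.848), with an interval of the ratio from 0.821 to 1.11.

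Both CRABP genes were among the brightest probe sets of the limb, at percentiles 99.7 for Crabp1 and 99.0 for Crabp2. Crabp1 read 12.44 (number 48) and 12.51 (number 50) in knockout pools, against 12.52 and 12.61 in wild-type pools. The genotypes did not overlap, but by a gap of 0.0097, and the difference of -0.090 ± 0.083 (SE) did not pass (limma, adjusted p = 0.759). Its ratio was 0.939, with an interval from 0.819 to 1.08. The difference was about the same between the arrays of either number, -0.087 and -0.094, and -0.048 without wild-type array 50 or -0.052 without knockout array 48. Crabp2 read 11.69 and 11.86 in knockout pools, against 11.78 and 12.01 in wild-type pools, and its genotypes overlapped. Its difference was -0.12 ± 0.11 (limma, adjusted p = 0.772), a ratio of 0.923 with an interval from 0.768 to 1.11. Without wild-type array 50 the Crabp2 difference was 0.0015.

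Stra6 supplies retinol to cells and is itself induced by retinoic acid in other systems. It read 10.42 (number 48) and 10.46 (number 50) in knockout pools, against 10.41 and 10.21 in wild-type pools. The pools did not overlap, by a gap of 0.0058, and only wild-type array 50 stood apart. The difference of 0.13 ± 0.097 (SE) did not pass (limma, adjusted p = 0.687), with a ratio of 1.09 and an interval from 0.933 to 1.29. Within number 48 it was 0.0059, and within number 50 it was 0.26. Without wild-type array 50 the Stra6 difference was 0.026. In all, the pools of the 2 genotypes did not overlap in 3 of the 9 genes (Rarg, Crabp1 and Stra6), against 42.0% of all genes tested.

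**Figure D2:**
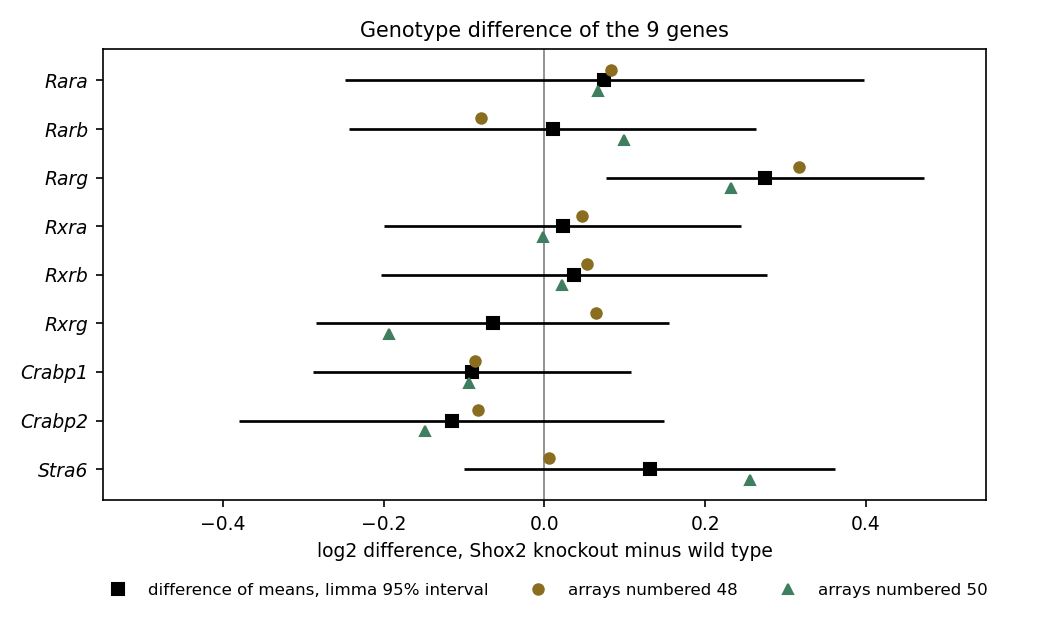
Log2 difference between Shox2 knockout and wild type for each gene: squares give the difference of the means with the limma 95% interval, circles the difference within number 48 and triangles that within number 50. The interval of Rarg, from 0.077 to 0.47, lies above 0, and the other 8 intervals include 0.

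For several of these genes the array number separated the pools more than the genotype did. The labels do not say what the number stands for. In Rara, Rarb, Rxra and Rxrb both pools numbered 50 read lower than both pools numbered 48, and in Crabp2 both read higher. These 5 of 9 genes did not overlap between the numbers, against 36.9% of all genes tested. The mean log2 difference, number 50 minus number 48, was -0.29 in Rara, -0.17 in Rxrb, -0.16 in Rarb, -0.13 in Rxra and 0.20 in Crabp2. In Rara it was nearly equal in the knockout (-0.29) and the wild type (-0.28). In these same 5 genes the difference between numbers was larger in size than that between genotypes, which was so for 47.3% of all genes. For Rarg the order was the other way, with -0.066 between numbers and 0.27 between genotypes. The median size over the 9 genes was 0.13 between numbers and 0.074 between genotypes, and over all genes it was 0.080 and 0.083.

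**Figure D3:**
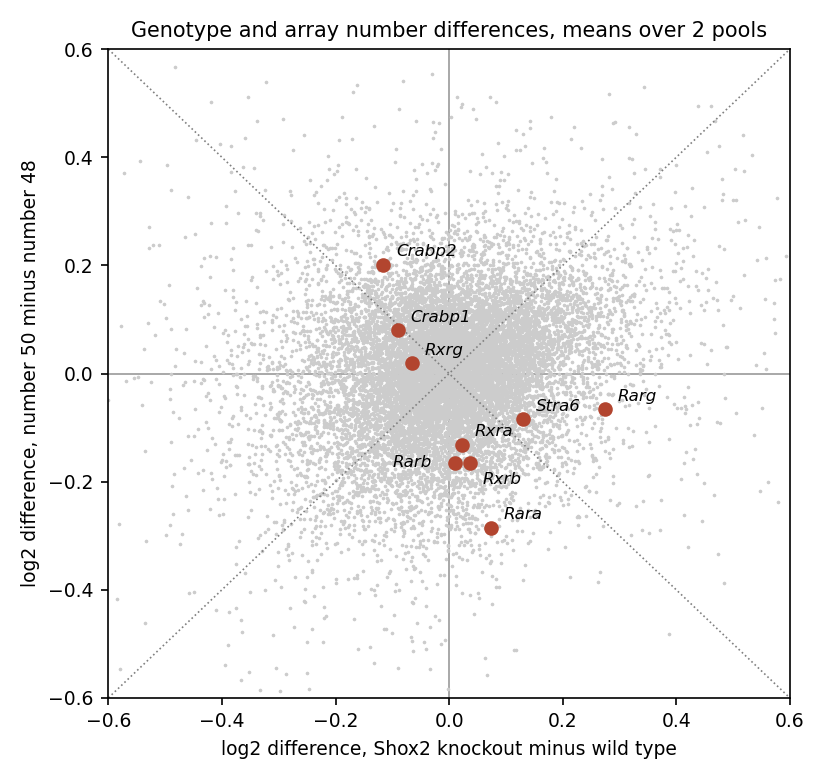
Mean log2 difference between array numbers (vertical) against that between genotypes (horizontal) for the 9 genes in red and for all genes tested in grey; on the dotted lines both are equal in size, and 93 of 14095 genes lie outside the axes. Rara lies lowest among the 9 genes (-0.29 between numbers) and Rarg farthest to the right (0.27 between genotypes).

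The genes whose pools were most like those of Rarg were sought over all 14095 tested genes. After each gene was centred on its own mean, the smallest root mean square distances over the 4 arrays were those of Ankrd13b (0.010), Tesk1 (0.012) and Pnrc1 (0.013), on the log2 scale. Rarg itself deviated from its mean by 0.14 by the same measure. Ankrd13b differed by 0.26 between the genotypes, Tesk1 by 0.27 and Pnrc1, which encodes a coactivator of nuclear receptors, by 0.26, each with an adjusted p of 0.405 in limma. With 4 arrays many genes can share such a profile, and nothing about shared control is read from it.

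The rest of the pathway was taken from 4 lists of genes that make, carry and break down retinoids, assist the receptors, pair with them or respond to retinoic acid. In limma without a covariate 0 genes of any of these lists passed over all genes, where 0.0213% of all genes did. Of 16 tested genes of synthesis, storage, transport and breakdown, 9 were higher and 7 lower in the knockout (median 0.023). An unadjusted p under 0.05 was reached by 5 of the 16, against 10.2% of all genes. With each array left out the median difference of the 16 ran from -0.029 to 0.090. The retinol-oxidising enzyme gene Rdh10 differed by -0.60 ± 0.082 (SE), and the degrading enzyme gene Cyp26b1 by 0.56 ± 0.12, each with an adjusted p of 0.322. Dhrs3, which turns retinaldehyde back to retinol, differed by -0.34, the alcohol dehydrogenase gene Adh1 by -0.49 and Rdh13 by 0.28. The Rdh10 difference was -0.66 within number 48 and -0.54 within number 50. Adh1 differed by -0.89 and -0.10, so arrays numbered 48 gave most of its difference, which was -0.27 without wild-type array 48 and -0.32 without knockout array 48. Without wild-type array 48 the Rdh13 difference was 0.15. Aldh1a2, the main retinaldehyde dehydrogenase of the embryo, read 8.24 and 8.002 in knockout pools, against 8.29 and 8.07 in wild-type pools, and its pools separated by number. A further 18 genes of this list, Cyp26a1, Cyp26c1, Aldh1a1, Lrat and Rbp2 among them, were too dim to test.

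Coregulators, the proteins that the receptors recruit, had small differences. In the knockout 18 of the 21 tested were higher and 3 lower, where 49.5% of all genes were higher, with a median of 0.039 and a range from -0.078 to 0.18. Without knockout array 48, 12 of the 21 were higher, with a median of 0.019. Most limb mesenchyme and ectoderm markers were higher in the same knockout pools, and their part in this was not tested. Of the 21 coregulators 7 did not overlap upwards and 2 (Nrip1 and Tbl1x) downwards, against 22.1% and 19.9% of all genes. In limma 0 of the 21 reached an unadjusted p under 0.05, where 10.2% of all genes did. The 4 with the smallest p among those without overlap were Rere (0.18), the zinc finger gene Zfp423 (0.14), Ajuba (0.15) and the acetyltransferase gene Kat2b (0.13). Rere rested largely on knockout array 48, without which its difference was 0.066. Kat2b differed by 0.14 within number 48 and by 0.13 within number 50. Its difference was 0.068 without wild-type array 48 and 0.075 without knockout array 50. Zfp423, a cofactor of the RAR and RXR pair, read 10.52 and 10.48 in knockout pools, against 10.37 and 10.35 in wild-type pools. Its difference of 0.14 ± 0.078 (SE) had an adjusted p of 0.591 in limma.

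Receptors that pair with RXR, or are related to it, included genes with differences as large as that of Rarg. In the knockout 9 of the 13 tested were higher and 4 lower (median 0.076, and 0.022 without wild-type array 48). One of the lower genes, Nr1h3 (-0.090), had both knockout pools under the brightness limit. It was tested only through the wild type, so its direction follows from the limit. Without Nr1h3, 9 of 12 genes were higher and 3 lower, with a median of 0.10. Unadjusted p-values under 0.05 in limma belonged to 4 higher genes and 1 lower gene, Nr4a1 (-0.28), thus to 5 of these 12 against 10.2% of all genes. The Nr4a1 difference was -0.15 without knockout array 50. The 4 higher genes were Nr2f1 (0.47 ± 0.14, SE), Nr2f2 (0.29 ± 0.087), Nr2f6 (0.32 ± 0.13) and Nr4a2 (0.32 ± 0.11), with adjusted p from 0.381 to 0.476 in limma. The first 3 belong to the COUP-TF family of orphan receptors, which bind the same kind of half-site and can oppose RAR on DNA, and Nr4a2 encodes an orphan receptor that pairs with RXR. Nr2f2 read 9.85 (number 48) and 9.71 (number 50) in knockout pools, against 9.52 and 9.45 in wild-type pools, with no overlap. Nr2f1 read 9.38 in both knockout pools against wild-type values of 9.13 and 8.69, and the genotype difference fell to 0.25 without wild-type array 50. Nr4a2 read 8.11 and 7.82 in knockout pools, against 7.64 and 7.66 in wild-type pools, and its difference was 0.17 without knockout array 48. Nr2f6 read 7.94 and 8.28 in knockout pools, against 7.87 and 7.71 in wild-type pools, so that its difference was 0.069 for number 48 and 0.57 for number 50, and 0.15 without knockout array 50. Most limb mesenchyme and ectoderm markers were higher in the same pools as these 4 genes, and the part of these markers was not tested.

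Among the listed genes known to respond to retinoic acid in other systems, more had lower than higher values in the knockout. The list was not divided by the direction of response, and Stra6 and Rarb were counted with the 9 genes instead. Its balance is therefore not read as a change in the response to retinoic acid. Of 24 tested, 16 were lower and 8 higher, with a median of -0.096 (-0.026 without wild-type array 48). For 3 of them every pool of 1 genotype lay under the brightness limit of 5.599: Hoxb4 and Ret in the knockout, and Shh in the wild type. These 3 were tested only through the genotype in which they were higher, so their separation follows from the limit and is not counted here. Among the other 21 genes 14 were lower and 7 higher (median -0.097). The pools did not overlap downwards in 9 of the 21, against 19.9% of all genes, and upwards in 2 (Hoxa5 and Fgf4), against 22.1%.

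Unadjusted p-values under 0.05 belonged to 4 of these 21 genes, 3 lower and 1 higher, Hoxa5 (0.25), against 10.2% of all genes. The lower 3 were Rarres1 (-0.64 ± 0.22, SE), named for its induction by retinoids, the zinc finger gene Tshz3 (-0.29 ± 0.079) and Rarres2 (-0.24 ± 0.079), with adjusted p from 0.368 to 0.415 in limma. Rarres1 read 6.44 and 6.18 in knockout pools, against 6.60 and 7.31 in wild-type pools, and its difference was -0.29 without wild-type array 50 and -0.998 without wild-type array 48. Tshz3 read 10.29 in both knockout pools and 10.61 and 10.54 in the wild type. Hoxb4 read 5.36 and 5.57 in the knockout, against 5.84 and 5.80 in the wild type, a difference of -0.36 at the dim end of the array that is given as a description. Markers of blood and vessels were lower in the same knockout pools: 11 of 12 endothelial markers (median -0.25, levels above) and 7 of 9 erythroid markers, with a median of -0.10 and a mean log2 level of 8.42 to 8.51 in the knockout against 8.52 to 8.70 in the wild type. All of these markers had a mean above the brightness limit, and their part in the values of the retinoid-responsive genes was not tested. Rarb and Stra6, also known to respond to retinoic acid, differed by 0.010 and 0.13. Their 95% intervals ran from -0.24 to 0.26 and from -0.10 to 0.36.

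**Figure D4:**
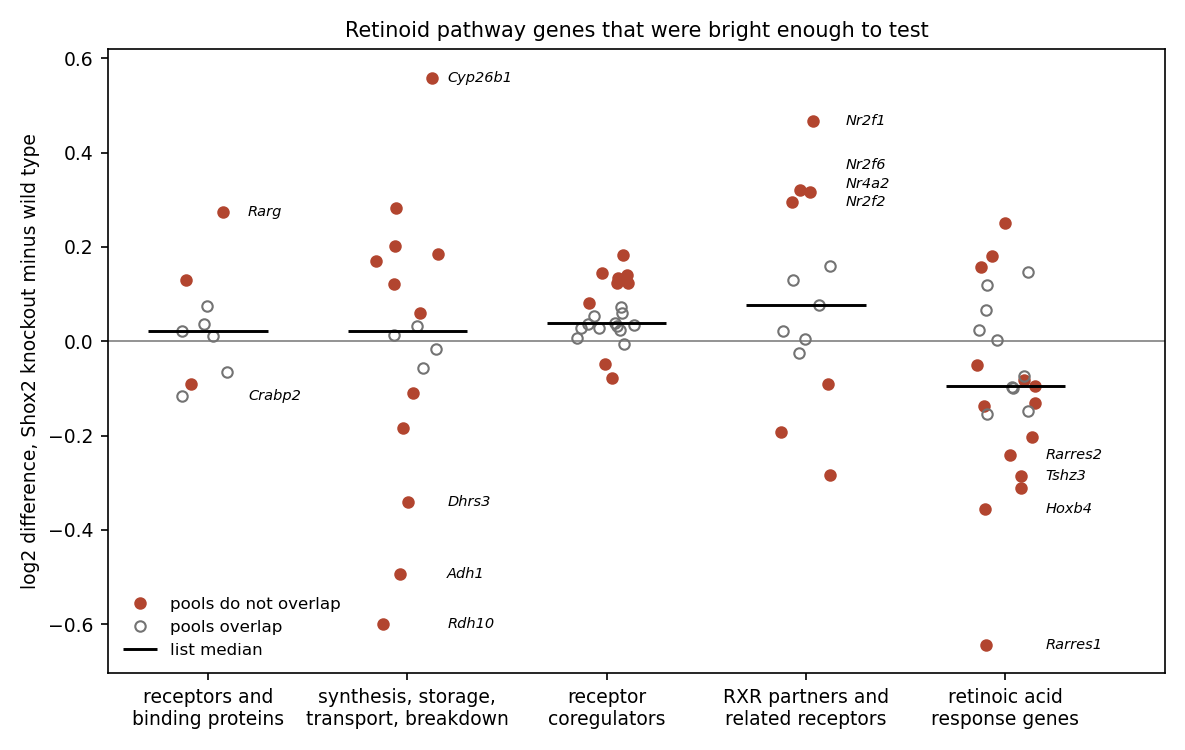
Log2 difference between Shox2 knockout and wild type for the tested genes of the 5 retinoid lists; filled points are genes whose pools did not overlap between the genotypes, open points those that did, and lines the list medians; Nr1h3, Hoxb4, Ret and Shh are drawn although 1 genotype lay wholly under the brightness limit. The receptors and binding proteins span -0.12 to 0.27, and genes of synthesis and breakdown span -0.60 to 0.56.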

How the data were processed

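The authors deposited 1 table of log2 expression with 25206 probe sets and 4 arrays; the log2 scale was read from its values, which lie between 5.04 and 14.1. Sorted columns differ by at most 0.0017, which is what quantile normalization gives. Per the labels' protocols, TRIzol RNA of pooled limbs of the same genotype was labelled as biotinylated cRNA by the Affymetrix procedure. The name of the array model, the background correction and probe summary are not given in the sources used here. Quantile normalization hides a shift shared by most genes. Probe sets were named from a platform annotation (23185 with 1 gene, 0 with several, 2021 unnamed); 0 symbols changed on lookup by Entrez identifier.

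Named genes with a mean no lower than percentile 40 of the array (5.599) were tested: 14095 genes. Genotypes were compared with limma 3.58.1 (lmFit, eBayes; R 4.3.3), two-sided, no covariate, Benjamini-Hochberg threshold 0.05. Tested on simulated data, the fit recovered 18.7% of genes given a log2 change of 0.5, 71.3% at 1 and 94.5% at 2. These shares belong to the simulated data and need not hold for the real pools. Shox2 (-1.24) and Xist (-1.01) did not pass in the limma fit of the deposited values. Errors are SEs of that fit or SDs over 2 pools. No read depth exists for arrays: the number of arrays limits precision. Plots used matplotlib 3.10.9, promoter searches Python 3.11.15. The 9 genes and the lists were chosen with earlier results of these data known. By the naming rule, all 9 genes were named, and from each other retinoid list the genes past the threshold, then up to 4 by unadjusted p among those without overlap; Aldh1a2, Rdh13, Nrip1, Tbl1x, Nr4a1, Nr1h3, Hoxa5, Ret, Shh, Fgf4 and genes listed as too dim were named besides, after their values were seen. The lists for erythroid, muscle, neuron and glia, ectoderm and macrophage cells had median differences of -0.10, 0.068, -0.17, 0.097 and 0.041. Alternatives were other filters, normalization, variance models, unnamed probe sets, the title number as a block and each array left out. Leaving genes with 1 genotype wholly under the brightness limit out of list counts, and list counts with each array left out, were added after seeing the data.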

Additional observations from a re-analysis of the deposited data

How the results depend on the processing

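None of the 9 genes passed in limma under any of the 12 alternatives, and their median difference ran from -0.052 to 0.11 with each array left out, where the sign was negative without knockout array 48 (-0.052) and without wild-type array 50 (-0.031). Rarg, Stra6 and Crabp1 kept their sign under all 12. With each array left out the other differences changed sign: Rara ran from -0.072 to 0.22, Rarb from -0.12 to 0.14, Rxra from -0.056 to 0.10, Rxrb from -0.054 to 0.13, Rxrg from -0.14 to 0.0098 and Crabp2 from -0.23 to 0.0015. The count of the 9 genes at an unadjusted p under 0.05 was 1, and 0 without knockout array 48 or without wild-type array 50. The count over all genes was 3, and 4 to 5 with each array left out. A lone array was then assumed to vary like the other genotype.

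With the title number as a replicate block, which leaves 1 residual degree of freedom, limma called 382 genes in all and 0 of these 9; Rarg had an adjusted p of 0.0943. Rdh10 (adjusted p = 0.00845), Cyp26b1 (0.0124), Nr2f1 (0.0476) and Shox2 (0.00167) passed in it. Deviations of same-numbered arrays from their group means correlated at 0.388 across genes, but with 2 pairs and no label for the number the samples are taken to share only a number. Shox2 also passed without knockout array 48 (-1.59, adjusted p = 0.0349). Adjusted p of Rarg ran from 0.0943 to 0.810 over the 12 alternatives. Values near the bottom of the range, such as those of Hoxb4, are compressed.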
